A study of Homo sapiens with 2 samples.

Results

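The subject is the group of 10 genes FOS, FOSB, FOSL1, FOSL2, JUN, JUNB, JUND, ATF3, BATF3 and MAFF, which encode basic leucine zipper factors of AP-1 and its close partners, out of 19970 annotated genes that code for proteins (autosomes and X). They were taken from a list of names, and their chromatin was followed in every ATAC-seq peak that lay in the gene body or within 50 kb of any annotated start site. This gave 97 of 67868 peaks in the No gRNA library and 92 of 68238 peaks in the All gRNA library. ATAC-seq marks open chromatin by the places where the transposase Tn5 cuts DNA and inserts adapters. Both libraries came from SUM159, an established cell line of the claudin-low subtype of triple negative breast cancer that has mesenchymal features, grown to the same confluence before lysis. Both cell populations carried dCas9-KRAB, a Cas9 without nuclease activity fused to the KRAB repressor domain, from the lentiviral vector pLV-KRAB, and were kept as selected pools. The No gRNA library had the empty vector with no targeting guide, and the All gRNA library had 4 guides against the promoter of ZEB1, a repressor of epithelial genes that binds E-boxes. None of the 10 genes was a target of the guides. With 1 library in each group the conditions could not be tested against each other, so differences below are between these libraries and carry no p-value.

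AP-1 is a dimer in which a FOS family protein (FOS, FOSB, FOSL1, FOSL2) pairs with a JUN family protein (JUN, JUNB, JUND) through a leucine zipper. FOS proteins do not form stable dimers with themselves, whereas JUN proteins can. The dimers bind the AP-1 site TGACTCA and, with ATF partners, the cyclic AMP response element (CRE) TGACGTCA. Many of these genes are immediate early genes, which serum and stress induce within minutes through serum response factor at CArG boxes and through CREB and ATF proteins at CRE-like sites. In mesenchymal and basal-like breast cancer cells AP-1, with FOSL1 as a well-known member, is a main factor at open enhancers.

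The files hold peaks and no library totals. A read depth at each summit, the summit pileup, was therefore recovered from the deposited fold and p of each peak, and it came out as a whole number for 100% of the peaks. The depth of the All gRNA library was 0.743 times that of the No gRNA library, and all ratios below are All gRNA to No gRNA pileups divided by this value. They carry exact 95% binomial (Clopper-Pearson) intervals, given in parentheses, which cover counting error only and are too narrow, since both ends of a fragment may be counted. The median pileup was 19 reads in the No gRNA list and 14 reads in the All gRNA list. At ZEB1 itself the peak at the main start site, with a pileup of 25 reads in No gRNA, had no overlapping peak in All gRNA. The mesenchymal genes VIM, SNAI2, CAV1 and AXL had promoter peaks in both libraries. Of the epithelial genes, CDH1 had 1 promoter peak of 7 reads in No gRNA and GRHL2 none. EPCAM had 1 of 17 and 12 reads at another start, −24196 bp from its main start. The luminal genes GATA3 and FOXA1 also had promoter peaks in both libraries, at up to 85 and 64 reads in No gRNA, and ESR1 had 1 promoter peak, of 8 reads in No gRNA and with no partner in All gRNA. The blood cell genes PTPRC and SPI1 had none. No peak of either list covered the main start of SNAI2, CDH1, EPCAM or ESR1.

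The DNA directly upstream of the start sites is shown first, because it carries the elements by which these genes are usually described. The 7 stretches below run from −125 to −6 relative to the main start site (that of the Ensembl canonical transcript), on the strand of the gene, in hg38. They belong to the members for which this stretch held no annotated untranslated region. Capitals mark CRE half-sites (TGACG or CGTCA), the sequence TGACATCA and the TATA box TATAAA.
FOS, chr14:75278703-75278822, plus strand: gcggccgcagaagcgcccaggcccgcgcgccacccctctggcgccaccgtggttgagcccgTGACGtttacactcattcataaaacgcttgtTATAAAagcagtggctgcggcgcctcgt
FOSB, chr19:45467871-45467990, plus strand: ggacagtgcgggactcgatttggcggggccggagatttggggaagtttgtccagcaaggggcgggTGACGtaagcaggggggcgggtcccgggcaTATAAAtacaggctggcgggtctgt
JUN, chr1:58784053-58784172, minus strand: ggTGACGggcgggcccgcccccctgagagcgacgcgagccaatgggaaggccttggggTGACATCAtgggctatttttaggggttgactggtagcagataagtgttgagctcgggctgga
JUNB, chr19:12791361-12791480, plus strand: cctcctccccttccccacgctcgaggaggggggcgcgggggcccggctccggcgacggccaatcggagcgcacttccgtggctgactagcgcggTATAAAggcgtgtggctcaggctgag
JUND, chr19:18281628-18281747, minus strand: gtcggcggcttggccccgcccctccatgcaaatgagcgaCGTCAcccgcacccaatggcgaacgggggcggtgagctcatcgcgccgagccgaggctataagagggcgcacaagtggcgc
ATF3, chr1:212608636-212608755, plus strand: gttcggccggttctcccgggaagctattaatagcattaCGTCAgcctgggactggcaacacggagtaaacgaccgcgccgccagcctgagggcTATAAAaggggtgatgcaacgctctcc
BATF3, chr1:212699846-212699965, minus strand: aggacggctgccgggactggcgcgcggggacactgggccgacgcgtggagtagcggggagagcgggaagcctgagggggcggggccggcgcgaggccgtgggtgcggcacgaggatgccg

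Over the 250 bp upstream of the main start, 9 of the 10 genes held a CRE half-site on either strand, and BATF3 was the exception, against 25.4% of 19970 protein-coding promoters. The half-site begins at −64 in FOS and at −60 in FOSB, in both with the letters TGACG, and the TATA box lies at −33 and −30. The whole CRE TGACGTCA, which contains the half-site, was found in JUND at −200 and in MAFF at −54, against 2.41% of promoters. JUN held TGACATCA at −67, a variant found in 1.93% of promoters and known as the site through which JUN with ATF2 acts on the JUN promoter. TATAAA within the last 50 bp was found in FOS, FOSB, JUNB and ATF3, against 4.20%. No member held the AP-1 site (3.07% of promoters), CAGGTG, the E-box that ZEB1 binds best (17.4%), or a CArG box (1.12%) in these 250 bp. The half-site, TGACATCA and TATAAA were searched for after the sequences had been seen. A match describes the letters and is not a measured site.

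Most peaks at AP-1 genes were present in both libraries, and most of the shared ones were lower in All gRNA once depth was accounted for. Counted once, the peaks of both lists formed 108 loci, since 1 peak lay in the windows of both ATF3 and BATF3. Of these, 80 (74.1%) were shared by an overlap of at least 1 bp, 17 were listed for No gRNA alone and 11 for All gRNA alone. Exactly 1 partner in each list was found for 76 loci, here called pairs, and the other 4 shared loci were given no ratio. The ratio was below 1 in 56 pairs (73.7%) and above 1 in 20, from 0.323 to 2.24, with a median log2 ratio of −0.26. Over all 48041 pairs of the series the median was −0.11 and 58.1% were below 1. The shift of all pairs grew with peak strength, from a median log2 ratio of 0.11 in the weakest of 5 equal classes by summed pileup to −0.24 in the strongest, and the member pairs were mostly strong. Of them, 28 fell in the strongest class, with a median of −0.41 and 23 ratios below 1 (82.1%, against 77.9% of all pairs of that class), and 25 in the next, with −0.24 against −0.19 for all pairs of that class. The 2 member pairs of the weakest class, at −0.46, and the 10 of the next, at −0.33, lay below the 0.11 and −0.012 of all pairs, and the 11 of the middle class, at −0.019, above the −0.095 of all pairs. By gene, the median log2 ratio was lowest at FOS (−0.64, 4 of 4 pairs below 1) and ATF3 (−0.50, 7 of 8), lay between −0.36 and −0.18 at MAFF, FOSB, JUN, FOSL1, BATF3 and JUND, and was above 0 at FOSL2 (0.097, 2 of 5) and JUNB (0.13, 4 of 9). Within-gene pairs share a region and are not replicates.

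The peaks were divided into promoter peaks, within 4000 bp of any start site of the member, peaks in the same windows but within 4000 bp of the start of another protein-coding gene, and peaks away from all protein-coding starts. The promoter class held 22 No gRNA and 20 All gRNA peaks. In it 3 peaks (13.6%) were in No gRNA only, against 17.5% of all No gRNA peaks near a protein-coding start, and 1 (5.00%) was in All gRNA only, against 12.5%. A pair was called when its ratio was at least 2-fold and its interval left out 1. Of 19 promoter pairs, 2 were called lower, at FOSB and BATF3, which is 10.5% against 2.88% of all pairs near protein-coding starts, and 0 were called higher, against 1.13%. The ratio was below 1 in 16 of the 19 promoter pairs (84.2%; 67.7% of all pairs near starts), with a median log2 ratio of −0.25 beside −0.19. Scaled by the median of pairs of like strength, the median of the promoter pairs was −0.055. At the starts of neighbouring genes, 6 of the 37 peaks of No gRNA and 5 of the 37 of All gRNA lay in 1 list, 1 of 30 pairs was called lower and 0 higher, and the median was −0.26. Away from starts, 8 of the 38 peaks of No gRNA (21.1%) and 5 of the 35 of All gRNA (14.3%) lay in 1 list, against 28.3% and 29.1% of all such peaks. Of the 27 pairs there, 1 was called lower, against 3.49%, and 1 higher, against 3.16%. Their median log2 ratio was −0.27 beside −0.041 for all pairs away from starts. In the strongest class all pairs away from starts had −0.24, and in the next −0.16. Scaled by the median of pairs of like strength, the pairs at neighbouring starts and away from starts together had a median of −0.11. The shares in 1 list were thus below those of all peaks in 5 of the 6 counts, the exception being the 5 All gRNA peaks at neighbouring starts (13.5% against 12.5%). The member peaks are deeper than most, and the part of depth in these shares was not tested. With so few pairs the called counts rest on single loci.

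The main promoter peaks spanned a wider range between genes, from 38 to 229 reads in No gRNA, than any of them did between the libraries. The peak at the main start was deepest in JUN, the partner common to most AP-1 dimers, with 229 reads in No gRNA and 152 in All gRNA. It was followed by ATF3, a stress-induced repressor of the same zipper family, with 199 and 136 reads, and by JUND, the JUN protein with the most constant expression, with 150 and 94. These 3 were also the deepest in All gRNA, in the same order. FOSL2 came next with 130 and 71 reads, then FOSL1 with 74 and 63, MAFF, a small MAF protein without an activation domain, with 72 and 41, and JUNB with 63 and 52. FOS, the best-known member, had the lowest main peak in No gRNA, with 38 reads and 28 in All gRNA. At FOSB no peak covered the main start, and the nearest, at +1.4 kb, had 85 and 27 reads. BATF3, known as a factor of dendritic and lymphoid cells, had 47 and 14. In the order of the No gRNA pileups, only 2 of the 9 steps between neighbours had a ratio whose interval left out 1, from ATF3 to JUND (1.33, 1.07 to 1.65) and from FOSL2 to FOSB (1.53, 1.15 to 2.03). The other neighbours were not told apart at this depth. Among all No gRNA peaks, ordered by −log10 q, the main peaks stood between the 59.8th percentile (FOS) and the 98.9th (JUN).

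In the FOS family, FOSB held the largest promoter difference. Its peak at chr19:45469193-45469593, in an intron of FOSB within the annotated span of ERCC1, had 85 reads in No gRNA and 27 in All gRNA, or 36.3 at equal depth, and a ratio of 0.427 (0.266 to 0.666). Scaled by the median of pairs of like strength it was 0.504 and no longer called. The next peak of FOSB, at +1.9 kb, was lower too, with 38 and 15 reads and a ratio of 0.531 (0.271 to 0.988), but did not reach 2-fold. The start of FOS, at chr14:75278442-75279042, had a ratio of 0.992 with a wide interval (0.586 to 1.66), and its second promoter peak, at −1.5 kb, had 62 and 31 reads (0.673, 0.422 to 1.05). FOSL1, at chr11:65900369-65900861, had the highest ratio of the main promoter peaks, 1.15 (0.805 to 1.63). FOSL2, at chr2:28392147-28393085, had a ratio of 0.735 (0.542 to 0.989), short of 2-fold. Its flanking peaks at −2.2 and −1.1 kb had 39 and 31 reads and 50 and 32 reads, with ratios of 1.07 and 0.861. The ratios along the FOSL2 promoter thus lay on both sides of 1.

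In the JUN family no promoter pair was called. JUN, at chr1:58783960-58784833, had a ratio of 0.893 (0.723 to 1.10), and JUND, at chr19:18281459-18282260, one of 0.843 (0.645 to 1.10). On a log scale these are the narrowest intervals of the group with that of ATF3 (chr1:212608259-212608990, 0.920, 0.734 to 1.15). Each of the 3 leaves out a 2-fold difference between these libraries, as do those of the main peaks of FOS, FOSL1, FOSL2, JUNB and MAFF. All of them cover counting error only. JUNB, a relative that can counteract JUN, had 3 promoter peaks. The one on the start, chr19:12791388-12791645, had a ratio of 1.11 (0.754 to 1.63), and the one at −1.4 kb had 104 and 69 reads (0.893, 0.649 to 1.22). The one at +2.3 kb had 83 and 45 reads (0.730, 0.496 to 1.06). It lay past the end of JUNB, and the start nearest its summit was one of HOOK2, at 1158 bp. For JUNB the deepest promoter peak was thus not the one on the start.

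Among the partners, BATF3 stood out. Its peak at chr1:212699092-212700093 covered the start, with its summit 367 bp downstream in an intron, and its 47 and 14 reads, or 18.8 at equal depth, gave a ratio of 0.401 (0.204 to 0.741), the lowest of the promoter pairs. In rank of −log10 q among all peaks of its list, this peak went from the 79.6th percentile in No gRNA to the 41.2nd in All gRNA, and that of FOSB from the 91.0th to the 72.4th. MAFF, at chr22:38201777-38202265, had a ratio of 0.766 (0.509 to 1.14). Near upstream starts of ATF3, a peak at −41.4 kb, 2032 bp from the nearest start, had 68 and 32 reads and a ratio of 0.633 (0.402 to 0.978). Another at −46.9 kb, 3490 bp from the nearest start, had 21 and 11 reads (0.705, 0.307 to 1.53). Neither covered a start, unlike the main promoter peak of ATF3 with its ratio of 0.920.

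Of the 4 promoter peaks found in 1 library, the deepest lay at JUN. A peak at chr1:58785100-58785408, in an exon of the divergent transcript LINC01135 and −1.2 kb from the JUN start, had 61 reads and a −log10 q of 18.9 in No gRNA. At All gRNA depth these would be 45.3 reads, against a pileup of 22 that the All gRNA list would have called over the same background. The next All gRNA peak, that of the JUN start, ended at 58784910, so that open chromatin upstream of JUN was listed over a shorter stretch. The peaks of FOSL1 at +0.9 kb (21 reads) and of FOSL2 at −1.8 kb (40 reads) were also in No gRNA only, at −log10 q values of 6.0 and 7.6. JUND had the only peak of All gRNA alone in the promoter class, at +1.9 kb, with 30 reads and a −log10 q of 9.3. Its summit lay in the untranslated region at the far end of this short gene, 1197 bp from the nearest JUND start.

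The length of promoter covered by peaks gives a view that does not depend on pairing. Summed over the 10 genes it was 11353 bp in No gRNA and 10449 bp in All gRNA, or 92.0%, while the width of all peaks near protein-coding starts was 88.3% of that in No gRNA. It was shorter in All gRNA at 8 genes and equal at MAFF (489 bp), with a median difference of −97.5 bp. At JUND it was longer by 237 bp, through the peak of All gRNA alone at the far end of the gene. Over the 15341 protein-coding genes with a promoter peak in either list, it was shorter at 67.9% and longer at 31.7%, with a median difference of −71 bp. The count depends on the window: with a promoter of 1000 bp, 4 AP-1 genes were shorter and 5 longer, against 69.1% and 30.5% of 13953 genes. Of the shorter genes at 4000 bp, FOSL2 had the largest difference, 1955 and 1573 bp, and JUN followed with 1183 and 957 bp. FOSB differed by 4 bp, 665 and 661, although its summit pair was called lower. This small sum holds opposite differences. The called peak was 401 bp long in No gRNA and 446 bp in All gRNA, and the peak at +1.9 kb 264 and 215 bp.

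Away from starts, the deepest peaks of the group lay around FOS and JUN. The sequences of the summits that these results turn on are given here, 60 bp either side of the No gRNA summit, on the plus strand of hg38, and for the FOS promoter and 1 site upstream of ATF3 100 bp either side, which holds their motifs. Capitals mark CRE half-sites and the CRE, the AP-1 site, CAGGTG and the CArG box, on either strand.
FOS −19.6 kb, chr14:75259155-75259275: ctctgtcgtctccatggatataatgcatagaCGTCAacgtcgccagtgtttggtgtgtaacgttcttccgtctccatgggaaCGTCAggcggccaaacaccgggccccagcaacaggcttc
FOS promoter, −0.2 kb, chr14:75278494-75278694: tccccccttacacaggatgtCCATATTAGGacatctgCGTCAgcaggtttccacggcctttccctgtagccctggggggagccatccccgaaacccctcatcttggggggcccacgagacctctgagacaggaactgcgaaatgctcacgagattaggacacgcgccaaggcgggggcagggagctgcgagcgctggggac
FOS +15.5 kb, chr14:75294248-75294368: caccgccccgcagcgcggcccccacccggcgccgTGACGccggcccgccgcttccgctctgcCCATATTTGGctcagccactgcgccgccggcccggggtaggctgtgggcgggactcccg
FOSB +1.4 kb, chr19:45469318-45469438: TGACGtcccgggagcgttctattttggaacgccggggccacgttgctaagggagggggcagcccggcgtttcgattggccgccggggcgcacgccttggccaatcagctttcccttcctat
BATF3 +0.4 kb, chr1:212699413-212699533: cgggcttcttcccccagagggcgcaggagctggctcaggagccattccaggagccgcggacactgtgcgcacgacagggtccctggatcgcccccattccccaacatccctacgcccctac
JUN +20.5 kb, chr1:58763444-58763564: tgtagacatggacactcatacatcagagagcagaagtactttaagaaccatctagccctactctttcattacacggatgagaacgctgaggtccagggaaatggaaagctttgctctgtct
JUN +28.4 kb, chr1:58755616-58755736: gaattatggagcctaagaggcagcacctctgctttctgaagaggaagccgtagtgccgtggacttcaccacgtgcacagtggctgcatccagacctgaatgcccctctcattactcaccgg
JUND −47.1 kb, chr19:18328620-18328740: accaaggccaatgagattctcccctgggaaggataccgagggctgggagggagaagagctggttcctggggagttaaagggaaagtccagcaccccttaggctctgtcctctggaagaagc
ATF3 −49.6 kb, chr1:212559027-212559227: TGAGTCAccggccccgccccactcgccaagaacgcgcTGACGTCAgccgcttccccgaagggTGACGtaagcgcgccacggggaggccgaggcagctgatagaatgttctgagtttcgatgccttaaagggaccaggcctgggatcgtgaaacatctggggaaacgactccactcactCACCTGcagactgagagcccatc

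The pair of FOS at +15.5 kb, chr14:75294070-75294540, was intergenic and the deepest peak of its gene, with 171 reads in No gRNA and 78 in All gRNA and a ratio of 0.614 (0.463 to 0.807). The pair at −19.6 kb, chr14:75258965-75259625, in an intron of an unnamed transcript, had 141 and 61 reads and a ratio of 0.582 (0.424 to 0.792). Both intervals left out 1 and neither pair reached 2-fold, and 0.614 lay inside and 0.582 just outside the interval of the FOS start. Both windows hold CRE half-sites, and that at +15.5 kb also a CArG box, as the FOS promoter does upstream of its summit, where the serum response element of FOS is known. These far FOS peaks were 4.50 and 3.71 times as deep in No gRNA as the start itself.

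JUN had a series of distal peaks downstream of the gene, within the introns of an unnamed transcript. The deepest, at +28.4 kb, chr1:58755387-58755949, had 143 and 77 reads and a ratio of 0.725 (0.542 to 0.963). At +20.5 kb, chr1:58763336-58763607, the pileup was 25 reads in No gRNA and 6 in All gRNA, and the ratio of 0.323 (0.108 to 0.806) was the lowest of all 76 pairs. The All gRNA partner, chr1:58763225-58763452, had a −log10 q of only 2.0, and the summits of both peaks lay more than 150 bp apart, so this pair compares neighbouring summits. At +19.5 kb 24 and 10 reads were found (0.561, 0.239 to 1.22), and at +15.4 kb a peak of 25 reads with a −log10 q of 17.7 was in No gRNA only, where 18.6 reads would be left at All gRNA depth and 7 would have been called. A peak of 11 reads at +21.0 kb was also in No gRNA only, but it ended at 58763221, just short of the All gRNA partner of the +20.5 kb pair. All 5 distal No gRNA peaks on this side of JUN were lower or not listed in All gRNA. Those at +20.5 and +21.0 kb lie at the same All gRNA peak, and the interval at +19.5 kb included 1. On the other side, inside LINC01135, the pairs at −32.5 and −31.5 kb had 36 and 32 reads and 43 and 29 reads, with ratios of 1.20 and 0.908. There a peak of 8 reads at −39.7 kb was in All gRNA only.

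The only pair called higher lay upstream of JUND. At chr19:18328499-18328866, −47.1 kb from the JUND start, intergenic and 5568 bp from the nearest protein-coding start, that of LSM4, the pileup was 33 reads without guides and 55 with them, or 74.0 at equal depth, and the ratio 2.24 (1.43 to 3.57). The neighbouring peak at the LSM4 start, at −41.6 kb, had 114 and 90 reads and a ratio of 1.06, whose interval (0.797 to 1.41) included 1. None of the 5 motifs was found within 100 bp of its summit. Whether it belongs to JUND or LSM4 cannot be read from ATAC-seq.

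The intronic pairs of FOSL2 at +14.2 and +16.7 kb had 43 and 39 reads and 38 and 42 reads, with ratios of 1.22 (0.771 to 1.93) and 1.49 (0.936 to 2.37), and both intervals included 1. At FOSB the deepest peak away from starts, at −24.3 kb in an intron of ERCC1, had 90 and 53 reads (0.792, 0.553 to 1.13), and a peak at −23.5 kb with 28 reads and a −log10 q of 10.5 was in No gRNA only. The pair at −12.0 kb in the same gene had 57 and 23 reads (0.543, 0.319 to 0.895), and the one at −27.9 kb pointed the other way with 24 and 28 reads (1.57, 0.877 to 2.83). On the far side of FOSB, inside RTN2, a peak of 17 reads at +17.9 kb was in All gRNA only, with a −log10 q of 11.1. FOSL1 and JUNB, in gene-dense regions, had few peaks away from starts. The strongest at FOSL1 by −log10 q, at −6450 bp with 20 reads, was in No gRNA only. A shared one at −11.5 kb had 21 and 18 reads (1.15, 0.579 to 2.27). The only one at JUNB, at −8.8 kb in HOOK2 with 16 reads, was in All gRNA only. Near the starts of BEST2 and HOOK2, in the JUNB window, peaks of 15 reads at −41.4 kb and 13 reads at −30.7 kb were in All gRNA only, with −log10 q values of 11.8 and 10.0. JUNB was the member with most loci of All gRNA alone, 4 of 15, and it also had 2 of No gRNA alone. Such peaks were common: 16211 of the 68238 in the whole All gRNA list lacked a partner. The share was 12.5% near protein-coding starts and 29.1% away from them. The JUNB count is small and was not tested against these shares.

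At ATF3 7 of 8 ratios were below 1. Its strongest peak away from starts by −log10 q in No gRNA, at +28.2 kb, had 64 and 33 reads (0.694, 0.442 to 1.07), and none of its pairs was called. The peak in both the ATF3 and the BATF3 window, between these genes, had 18 and 16 reads and a ratio of 1.20 (0.571 to 2.48). BATF3, whose promoter was called lower, had distal pairs on both sides of 1. They ran from 0.621 (0.334 to 1.11) at −28.2 kb, the strongest by −log10 q in No gRNA, with 39 and 18 reads, to 1.35 (0.751 to 2.41) at +28.0 kb, with 26 and 26 reads. MAFF had no peak away from protein-coding starts. In its window a pair at +39.2 kb, in an intron of TMEM184B at chr22:38241023-38241323, had 25 and 8 reads and was called lower at 0.431 (0.168 to 0.985), a call that was lost when the median of all pairs was the scale (0.464, 0.181 to 1.06). A peak at −23.7 kb in PLA2G6, with 36 reads and a −log10 q of 12.9, was in No gRNA only. Both lie within 4000 bp of the starts of those other genes.

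The pairs at starts of neighbouring genes inside the windows also fell on both sides of 1. Of these 30 pairs 21 (70%) were below 1, against 67.7% of all pairs near starts, and 9 were above 1. Below 1, the start of PPM1N in the FOSB window had 92 and 37 reads (0.541, 0.359 to 0.801). In the FOSL1 window a peak 2439 bp from the start of C11orf68 had 82 and 35 reads (0.574, 0.375 to 0.863), and the start of EFEMP2 had 90 and 41 reads (0.613, 0.413 to 0.896). Above 1, in the JUNB window, the start of THSD8 had 25 and 29 reads (1.56, 0.883 to 2.78) and that of HOOK2 45 and 45 reads (1.35, 0.870 to 2.08). The low ratios named here had intervals that left out 1 without reaching 2-fold, unlike the called pair in TMEM184B. The high ones named here had intervals that included 1.

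TGACTCA or its complement TGAGTCA, the AP-1 site itself, lay within 100 bp of the summit in 18 of 108 loci (16.7%), against 23.5% of all peaks in No gRNA and 24.3% in All gRNA, but more of the AP-1 gene loci lay near starts. By class it was found in 2 of 23 promoter loci (8.70%) and 5 of 42 at other starts (11.9%), against 12.1% of No gRNA peaks near starts, and in 11 of 43 away from starts (25.6%, against 29.3% of such No gRNA peaks). The promoter loci were the FOSL2 start and the FOSL1 peak at +0.9 kb, and ATF3 held the most, with 5 loci. The CRE half-site was found in 19 loci (17.6%, against 13.1% of No gRNA peaks) and in 7 of the 23 promoter loci (30.4%, against 19.6% near starts). The whole CRE was found in 2 loci (0.663% of No gRNA peaks), the JUND promoter and ATF3 at −49.6 kb, where the window printed above also holds the AP-1 site at its first base. The CArG box was found in 3 loci (2.78%, against 1.07% of No gRNA peaks). These were the FOS promoter, FOS at +15.5 kb and a peak at +49.4 kb from JUNB in MAST1. CAGGTG or its complement was found in 14 loci (13.0%, against 11.6%). Over all pairs the median log2 ratio was −0.057 with an AP-1 site and −0.12 without, which mixes the classes. Away from starts it was −0.037 with and −0.041 without, and near starts −0.12 and −0.19. The 11 member pairs with a site had a median of −0.12 and the 65 without one −0.27, and 63.6% and 75.4% were below 1. Away from starts the 7 with a site had −0.019 and the 20 without −0.40. These motif shares are descriptions of unequal sets, with no test.

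The other genes of the pathway gave the setting. Of 9 further zipper partners (JDP2, BATF, BATF2, ATF2, ATF7, ATF4, MAFG, MAFK, MAF), 8 had a promoter peak in each library and BATF had none. Of their 10 promoter pairs, 8 were below 1, 1 was called lower and 0 higher, with a median log2 ratio of −0.44. The called pair belonged to MAFK, the small MAF relative of MAFF. At chr7:1532884-1533268, +2352 bp from its start, MAFK had 73 reads in No gRNA against 19, a ratio of 0.350 (0.200 to 0.587), and its main start carried a peak of 35 reads in No gRNA only. Of 10 upstream regulators (MAPK3, MAPK7, MAPK8, MAPK9, MAPK10, MAPK14, SRF, ELK1, ELK4, CREB1), all 10 had promoter peaks in both libraries. Of their 17 pairs, 15 were below 1 and 1 was called lower, at an internal start of the kinase gene MAPK10, chr4:86092788-86093128, with 34 and 10 reads (0.396, 0.174 to 0.819), and the median was −0.24. Of 10 other immediate early genes (EGR1, EGR2, IER2, IER3, IER5, DUSP1, ZFP36, NR4A1, KLF6, CCN1), all 10 had promoter peaks in both libraries, 15 of 21 pairs were below 1 and none was called, with a median of −0.17. The promoter medians of these 3 lists and of the AP-1 genes, at −0.25, thus ran from −0.44 to −0.17 around the −0.19 of all pairs near starts. Of all pairs near starts 67.7% were below 1, 2.88% were called lower and 1.13% higher. The counts of the 3 lists rest on few pairs and were not tested against these shares.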

How the data were processed

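The ATAC-seq peak lists of 2 libraries were analysed, 1 per group. After trimming with fastp the authors aligned reads to hg38 (bowtie2), discarded mitochondrial, exclusion-list and duplicate reads, and called peaks in each library with MACS2 without a control, at a stated read extension of 150 bp. Tool versions are not given in the sources used here. The deposited columns hold a score, which was not used, the fold enrichment (a ratio), the −log10 of p and of q, and the summit offset, all from the authors' caller. Depth is not stated in the files.

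From these, whole-number summit pileups were solved from fold and −log10 p, by a procedure that was tested on simulated data, and libraries were scaled by the ratio of their lowest backgrounds (0.651816 and 0.484375). Peaks on chromosomes 1 to 22 and X were annotated with GENCODE release 44 (hg38), and coordinates are 1-based. Start-site windows of 4000 bp follow the study. The limit for a peak of 1 list is the pileup at which the other list's weakest p (−log10 p of 3.53 for the No gRNA list, 3.28 for the other) would be reached over the scaled background. Sequences were read from hg38. Named were all members, their main promoter peaks, the strongest peak away from starts, peaks of 1 list with −log10 q of at least 10, called pairs, and other pathway genes with a called pair or a peak of 1 list at the main start. Further peaks were picked after their values were seen. Of the other pathway genes, 2 are not reported here and entered no count. Members and lists were chosen with earlier results of these data known. Python 3.11.15, NumPy 2.4.6, pandas 2.3.3, SciPy 1.17.1, pysam 0.24.0, matplotlib 3.10.9 and samtools 1.23.1 were used. Alternatives were other overlaps, thresholds, windows, fold limits and scalings.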

Additional observations from a re-analysis of the deposited data

How the results depend on the processing

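Of 80 values computed under an alternative, 59 stayed within their limits, 21 moved and 0 reversed. Promoter peaks of No gRNA only numbered 5 with summits within 150 bp as the criterion and 1 with −log10 q of at least 10 or a promoter of 1000 bp, and those of All gRNA only 3, 0 and 0, and 4 with 10000 bp. Distal peaks of No gRNA only numbered 3 with −log10 q of at least 10, 4 in windows of 20 kb and 22 in windows of 100 kb, and those of All gRNA only 3, 4 and 18, and 16 when the overlap had to reach 50% of each peak. A limit of 1.5-fold called 13 pairs lower and 1 higher, and the share of all pairs at that limit was not computed. When each pair was scaled by the median of its strength class, the median log2 ratio was −0.055 for promoter pairs and −0.11 for distal pairs, and the FOSB promoter pair, at 0.504, was no longer called. With the median of all pairs as scale, the MAFF window pair, at 0.464 (0.181 to 1.06), was no longer called. The JUN pair at +20.5 kb could not be formed with summits within 150 bp. With a promoter of 1000 bp the covered length in No gRNA was 7336 bp. At that setting 4 genes were shorter and 5 longer in All gRNA, against 69.1% and 30.5% of all genes with a promoter peak. With 10000 bp 6 were shorter and 4 longer, and no share of all genes was computed there. No paired analysis was possible because there was 1 library per group. No replicate could be left out, so the spread between cultures is unknown. The cause of these shifts was not tested.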
